A study of Rattus norvegicus with 8 samples.

Results

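Transcripts of 10 chemokine receptor genes of blood leukocytes were sought in the whole blood of male Wistar rats, of which 9 were measured, by 12 probe sets among 31042 tested ones. The genes were Cxcr4, Cxcr2, Cxcr1, Cxcr3, Cxcr5, Ccr1, Ccr2, Ccr3, Ccr7 and Cx3cr1, and a probe set counted as a member when the platform annotation mapped it to exactly 1 of these symbols. No probe set carried the symbol Ccr7, which was not analysed here. Cxcr4 had 3 probe sets, Cxcr5 had 2 and each of the other 7 genes had 1. The mulberry group had been fed a high-fat diet with 1% mulberry leaf powder for 8 weeks, and the high-fat group the same diet without the powder, with 4 Affymetrix arrays per diet. The rats arrived at 7 weeks of age, had 1 week on a normal diet first, and were bled on day 56 after a night of fasting. The labels name 10 rats per diet and speak of biological replicates, but do not say whether RNA was pooled over rats, so the p-values measure only the spread between these samples.

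Chemokine receptors are G protein-coupled receptors that guide leukocytes along gradients of small secreted proteins, the chemokines. Neutrophils carry the CXC receptors for ELR+ chemokines, monocytes carry receptors for CC chemokines and fractalkine, eosinophils carry the eotaxin receptor, and B and T cells carry receptors that lead them into lymphoid tissue. CXCR4 is found on most leukocytes and holds cells in bone marrow through its ligand CXCL12. In RNA of whole blood, fewer cells of a type and less receptor RNA per cell cannot be told apart.

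The deposited values ran from 5.17 to 15.26 and are read as log2 probe set summaries, but a probe set had nearly the same value on all arrays. Its median SD was 5.31e-06, so differences are not fold changes. Values are given in SD units, in which 0 is the probe set's mean over the 8 arrays and 1 is its SD, and a difference is mulberry minus high-fat. The brightest probe sets of the 9 receptors had deposited means from 6.34 to 9.55, with a median of 6.96. Those of Ccr2 (6.34), Cxcr2 (6.37) and Cxcr1 (6.55), and Cxcr5 probe set 1369911_at (6.29), were below the median of 6.57 over all tested probe sets. Whether they stood above background was not tested. The 82 measured markers of blood cells had deposited means from 5.80 to 15.09 with a median of 8.00, also against 6.57 over all. Erythroid markers had the highest median, 10.9, while those of neutrophils (6.71) and of eosinophils and basophils (6.52) were close to the median of all. These lists also held bright probe sets, up to 11.1 for neutrophils (S100a9) and 9.79 for eosinophils and basophils (Alox15). The mean over all tested probe sets in SD units ranged from -0.0537 to 0.104 in the mulberry arrays and from -0.0882 to 0.0357 in the high-fat arrays. The hybridization controls, bacterial transcripts added in fixed amounts, averaged 0.558 ± 0.635 in the mulberry arrays and -0.558 ± 0.856 in the high-fat arrays (SD, n = 4 each). Their part in the receptor differences was not tested beyond their use as a covariate.

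None of the 12 receptor probe sets differed between the diets in the limma fit over all probe sets after Benjamini-Hochberg adjustment (adjusted p = 1 for all 12, against a background of 0% called, or 0 of 31042). At an unadjusted p under 0.05, 2 of the 12 were lower with mulberry and 0 were higher, where the background was 1.61% lower, 2.74% higher and 4.36% in either direction. Both of the 2 were probe sets of Cxcr4 designed from the same expressed sequence tag, so they do not count as separate members. By the brightest probe set of each gene, 1 of 9 was lower at this threshold and 0 were higher. With the replicate number as a block the count over probe sets was 0 of 12, and with 1 array left out in turn between 1 and 4 were lower and 0 higher. Taking the brightest probe set of each gene, 6 of the 9 receptors had lower means with mulberry, against 47.3% of all tested probe sets, with a median difference of -0.457, against 0.0559 over all. This direction depended on the scaling: with quantile normalized values 2 of the 9 were lower and 2 were at 0, and with median centred values 0 were lower. Quantile normalization gave 17.3% of all tested probe sets and 2 of the 12 receptor probe sets, both of Cxcr4, 1 identical value on all arrays, so their difference of 0 there says nothing about the diets. Ties on only some of the arrays were not counted. A quantile normalized difference of 0.707 or -0.707 is the value that a single array apart from otherwise tied arrays gives. Median centring itself shifted the median of all tested probe sets to 1.15 SD units, and the receptors' median was 0.992 there.

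**Figure D1:**
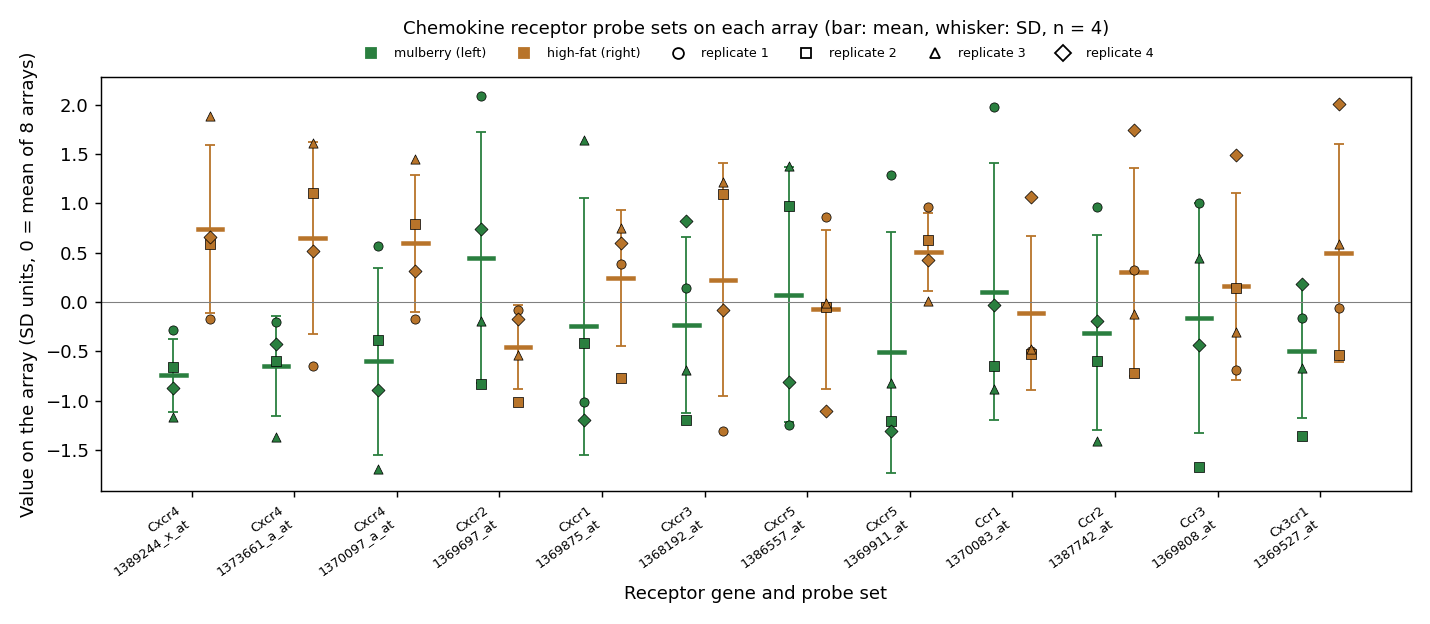
Value of each of the 12 receptor probe sets on each array, in SD units around its mean over 8 arrays. Mulberry arrays are green and left, high-fat arrays brown and right, marker shapes are replicates, bars are means and whiskers SDs (n = 4). The diets separate for 1 probe set, Cxcr4 1389244_x_at, and overlap for the other 11.

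Cxcr4 is the receptor of CXCL12 and was the only member with several probe sets that shared a pattern. It lies on chromosome 13, and the 250 bases before its start in RefSeq are shown because its probe sets varied together. In this and the 2 sequences given later, capitals mark motifs found on either strand. The TATA box was searched for as the letters TATAAA. The GC box, which Sp1 binds, was written as GGGCGG. A core that the myeloid factor PU.1 binds was written as GAGGAA, and a core of the C/EBP factors as TTGCNNAA. For other ETS factors the search used CCGGAAGT. The sequences are from build GRCr8 and read 5′ to 3′ along the gene.
Cxcr4, chr13:42634289-42634538, minus strand: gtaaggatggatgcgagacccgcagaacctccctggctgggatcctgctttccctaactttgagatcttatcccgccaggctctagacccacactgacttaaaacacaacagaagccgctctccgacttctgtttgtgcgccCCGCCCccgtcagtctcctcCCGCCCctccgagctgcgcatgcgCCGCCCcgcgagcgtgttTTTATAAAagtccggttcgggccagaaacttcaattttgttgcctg
This stretch held 3 GC boxes and a TATA box read on both strands, 2 overlapping matches. Of all 33469 stretches of the same length in the table, 30.5% held a GC box and 12.9% the TATA box.

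The brightest Cxcr4 probe set, 1389244_x_at, had a deposited mean of 9.55. It stood at -0.283, -0.656, -1.16 and -0.868 SD units in mulberry replicates 1 to 4, and at -0.167, 0.593, 1.89 and 0.656 in high-fat replicates 1 to 4. The diets did not overlap, although high-fat replicate 1 was only just above mulberry replicate 1. Of the 12 receptor probe sets, 1 was separated with mulberry below and 0 with mulberry above, where the background was 0.915% below and 1.6% above. The difference was -1.49 ± 0.439 (SE, limma unadjusted p = 0.0123, adjusted p = 1), and the two-sided exact permutation p was 0.0286, the smallest that 4 against 4 arrays allow. The suffix _x of this probe set marks probes that can match other transcripts, and the suffix _a of the other Cxcr4 probe sets marks several transcripts of 1 gene.

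Probe set 1373661_a_at of Cxcr4, designed from the same expressed sequence tag, had -0.205, -0.592, -1.37 and -0.427 in the mulberry arrays. Its high-fat arrays had -0.651, 1.11, 1.62 and 0.52, so high-fat replicate 1 lay among the mulberry arrays. The difference was -1.30 ± 0.519 (limma unadjusted p = 0.0419, adjusted p = 1). Probe set 1370097_a_at, from a different Cxcr4 sequence, had 0.572, -0.387, -1.69 and -0.886 in the mulberry arrays, against -0.172, 0.794, 1.45 and 0.317 in the high-fat arrays. Here mulberry replicate 1 lay among the high-fat arrays, and the difference was -1.20 ± 0.552 (limma unadjusted p = 0.068, adjusted p = 1).

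Over the 8 arrays the brightest Cxcr4 probe set correlated with 1373661_a_at at r = 0.94 (rho = 0.81, exact permutation p = 0.000719 and 0.0218) and with 1370097_a_at at r = 0.898 (rho = 0.881, exact p = 0.00275 and 0.00724). The remaining pair had r = 0.903 (rho = 0.881, exact p = 0.00231 and 0.00724). Adjusted over 4 pairs of probe sets of 1 gene, the exact permutation p-values for r were 0.00288, 0.00367 and 0.00367, and those for rho 0.029, 0.0145 and 0.0145. Without the 2 arrays farthest from the median r was 0.852, 0.799 and 0.809, and with diet means removed it was 0.888, 0.835 and 0.83, so the probe sets also varied together within a diet. In all of them mulberry replicate 3 was the lowest array and high-fat replicate 3 the highest.

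The Cxcr4 direction kept its sign with 1 array left out in turn, where the brightest probe set ranged from -1.66 to -1.41, and in the fit that included the hybridization controls, at -2.02 ± 0.523 (limma unadjusted p = 0.00883, adjusted p = 1). It turned to 0.644 after median centring, where the median of all probe sets was 1.15. Quantile normalization could not test this probe set or 1373661_a_at, since all arrays were tied for both. Probe set 1370097_a_at of Cxcr4 was not tied on all arrays. It turned to 0.791 after quantile normalization and was -0.798 after median centring. Over the arrays Cxcr4 had r = 0.00757 with the B cell marker score (rho = 0.286, exact permutation p = 0.986 and 0.501, adjusted p = 0.986 and 0.751 over 9 receptor and marker pairs, r = -0.217 without the 2 farthest arrays, -0.608 with diet means removed).

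**Figure D2:**
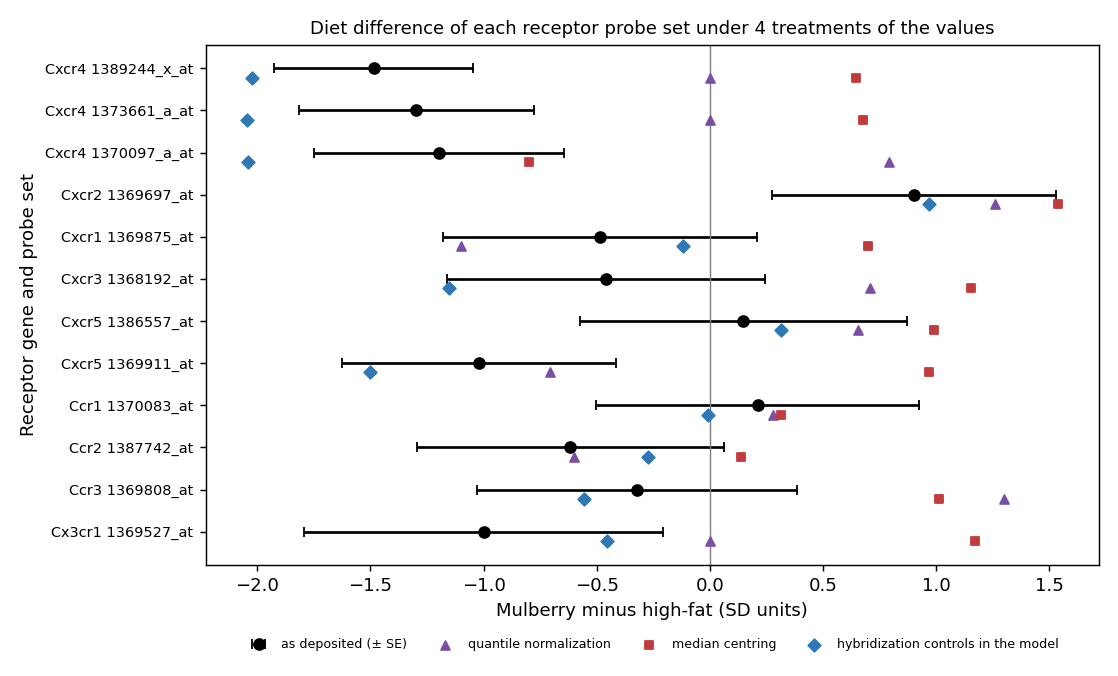
Difference between the diets (mulberry minus high-fat, SD units) for each of the 12 receptor probe sets. Black points with whiskers are the deposited values ± SE, triangles quantile normalization, squares median centring and diamonds the fit with the hybridization controls. The 3 Cxcr4 probe sets lie at -1.49, -1.30 and -1.20 as deposited, and median centring moves 11 of the 12 to values above 0. The triangles of Cxcr4 1389244_x_at and 1373661_a_at are at 0 because all arrays were tied.

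Cxcr2 and Cxcr1 are the neutrophil receptors for ELR+ CXC chemokines, and their genes are neighbours on chromosome 9. Cxcr2 had 2.09, -0.831, -0.196 and 0.741 SD units in the mulberry arrays, against -0.081, -1.02, -0.537 and -0.171 in the high-fat arrays. Mulberry replicates 1 and 4 were above all high-fat arrays and the other mulberry arrays were within their range. The difference was 0.902 ± 0.629 (limma unadjusted p = 0.196, adjusted p = 1). Its sign held under all 20 alternatives, some of which cannot change the difference itself. Cxcr1 had -1.01, -0.417, 1.65 and -1.19 in the mulberry arrays, against 0.387, -0.769, 0.756 and 0.597 in the high-fat arrays. Its difference was -0.485 ± 0.694 (limma unadjusted p = 0.508, adjusted p = 1). It was -1.38 without mulberry replicate 3 (limma unadjusted p = 0.0404, adjusted p = 1) and -0.178 without mulberry replicate 4. Mulberry replicate 3 was the highest array for Cxcr1, and replicates 1 and 4, the highest for Cxcr2, were the lowest for Cxcr1.

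The correlation of the pair over the arrays did not pass the test (r = -0.39, rho = -0.357, exact permutation p = 0.363 and 0.389, adjusted p = 0.657 and 0.616 over 36 receptor pairs, r = 0.779 without the 2 farthest arrays, -0.313 with diet means removed). With the neutrophil marker score Cxcr2 had r = 0.649 and rho = 0.786 (exact permutation p = 0.11 and 0.0279, adjusted p = 0.247 and 0.126 over 9 pairs), r = 0.776 without the 2 farthest arrays, and 0.608 with diet means removed. This correlation turned to -0.339 after quantile normalization. Cxcr1 had r = 0.0197 and rho = -0.381 with the same score (exact permutation p = 0.969 and 0.36, adjusted p = 0.986 and 0.648), -0.349 without those arrays and 0.102 with diet means removed. Of the 14 neutrophil markers 9 were measured, with a score from -0.242 to 0.598 in the mulberry arrays and from -1.51 to 0.364 in the high-fat arrays. The neutrophil score was not the only one to go with Cxcr2: r with the eosinophil and basophil score was 0.614, given as a description with no test.

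Ccr1, Ccr2 and Cx3cr1 are receptors of monocytes: CCR1 binds CCL3 and CCL5, CCR2 binds CCL2 and brings classical monocytes out of the marrow, and CX3CR1 binds fractalkine. Ccr1, Ccr3 and Ccr2 lie near each other on chromosome 8. Ccr1 had 1.98, -0.648, -0.883 and -0.0289 SD units in the mulberry arrays, against -0.495, -0.521, -0.471 and 1.06 in the high-fat arrays. Single arrays, mulberry replicate 1 and high-fat replicate 4, stood high in each diet. The difference was 0.212 ± 0.713 (limma unadjusted p = 0.776, adjusted p = 1) and turned to -0.64 without mulberry replicate 1. Ccr2 had 0.962, -0.6, -1.41 and -0.191 in the mulberry arrays, against 0.328, -0.722, -0.121 and 1.75 in the high-fat arrays. The same pair of arrays were the highest, and the difference was -0.617 ± 0.678 (limma unadjusted p = 0.394, adjusted p = 1). It was -1.05 without mulberry replicate 1 and -0.179 without high-fat replicate 4. Cx3cr1 had -0.158, -1.36, -0.665 and 0.183 in the mulberry arrays, against -0.0632, -0.531, 0.586 and 2.01 in the high-fat arrays. High-fat replicate 4 was again the highest, and the difference was -0.999 ± 0.794 (limma unadjusted p = 0.25, adjusted p = 1). It was 0 with quantile normalized values and 1.17 with median centred ones.

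The stretches before Ccr1 and Ccr2 are shown because both genes lie in the receptor cluster on chromosome 8 and had the highest r of the 36 receptor pairs, although it did not pass after adjustment.
Ccr1, chr8:132439267-132439516, minus strand: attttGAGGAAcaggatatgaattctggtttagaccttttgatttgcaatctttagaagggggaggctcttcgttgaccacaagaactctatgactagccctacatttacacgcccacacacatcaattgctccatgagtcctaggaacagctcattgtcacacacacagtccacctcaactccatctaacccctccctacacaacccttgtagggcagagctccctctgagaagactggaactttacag
Ccr2, chr8:132611953-132612202, plus strand: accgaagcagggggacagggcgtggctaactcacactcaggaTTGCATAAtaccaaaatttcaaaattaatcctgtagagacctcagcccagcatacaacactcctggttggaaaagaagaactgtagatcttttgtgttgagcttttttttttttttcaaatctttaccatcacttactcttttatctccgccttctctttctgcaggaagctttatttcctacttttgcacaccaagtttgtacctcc
The Ccr1 stretch held 1 GAGGAA and the Ccr2 stretch 1 match to TTGCNNAA, and neither held a TATA or GC box. Of all stretches, 23.3% held GAGGAA and 9.22% TTGCNNAA. The letters of CCGGAAGT were in none of the 8 receptor stretches in the table, against 3.1% of all, and Cxcr5 had no entry.

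All 3 monocyte receptors had positive correlations with the monocyte marker score, none of which passed after adjustment, and that of Cx3cr1 turned negative with values quantile normalized or median centred (r = -0.819 and -0.651). For Cx3cr1 quantile normalization gave a diet difference of 0, and ties on only some of the arrays were not counted. The score covered 12 of 13 markers, ranged from -0.801 to 0.611 in the mulberry arrays and from -0.47 to 1.48 in the high-fat arrays, and was highest in high-fat replicate 4. Ccr2 had r = 0.825 with it (rho = 0.667, exact permutation p = 0.0111 and 0.0831, adjusted p = 0.0995 and 0.187 over 9 pairs), 0.839 without the 2 farthest arrays and 0.835 with diet means removed. Ccr1 had r = 0.73 (rho = 0.833, exact permutation p = 0.0412 and 0.0154, adjusted p = 0.124 and 0.126), 0.935 without the 2 farthest arrays and 0.757 with diet means removed. Without mulberry replicate 1, Ccr1 reached r = 0.976 (exact permutation, adjusted p = 0.0107). Without mulberry replicate 4, Ccr2 reached 0.899 (exact permutation, adjusted p = 0.025). Cx3cr1 had r = 0.787 (rho = 0.667, exact permutation p = 0.0235 and 0.0831, adjusted p = 0.106 and 0.187), which was 0.279 without the 2 farthest arrays, so it rested on those samples, and was 0.853 with diet means removed. The monocyte score was not the only one to go with these receptors: with the NK cell score r was 0.82 for Cx3cr1, 0.75 for Ccr2 and 0.405 for Ccr1, given as a description with no test.

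**Figure D3:**
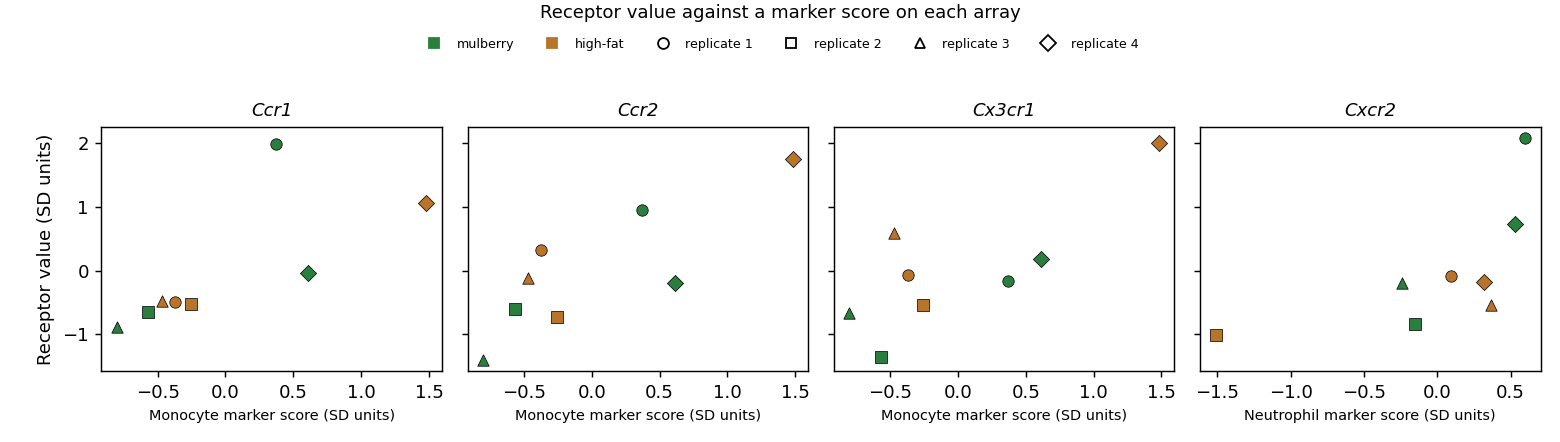
Receptor value (y axis) against a marker score (x axis), both in SD units, for Ccr1, Ccr2 and Cx3cr1 with the monocyte score and Cxcr2 with the neutrophil score. Each point is 1 of 8 arrays, green for mulberry and brown for high-fat, with shapes for replicates. High-fat replicate 4, at 1.48 on the monocyte score, is the highest array for Ccr2 (1.75) and Cx3cr1 (2.01).

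Between receptors, Ccr1 and Ccr2 had r = 0.81 (rho = 0.857, exact permutation p = 0.0144 and 0.0107, adjusted p = 0.255 and 0.193 over 36 pairs), 0.632 without the 2 farthest arrays and 0.904 with diet means removed. Ccr2 and Cx3cr1 had r = 0.766 (rho = 0.714, exact permutation p = 0.0283 and 0.0576, adjusted p = 0.255 and 0.416), 0.405 without the 2 farthest arrays and 0.739 with diet means removed. Of the 36 pairs, 24 had r above 0. Only Cxcr5 with Ccr1 passed after adjustment, and only by r and not by rho (exact permutation, adjusted p = 0.0304 and 0.0804). This was for the brighter Cxcr5 probe set, and the other one was not in the pairs.

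Ccr3, the eotaxin receptor of eosinophils, had 1.01, -1.67, 0.452 and -0.439 SD units in the mulberry arrays, against -0.688, 0.148, -0.305 and 1.49 in the high-fat arrays. Both diets spanned most of the range, and the difference was -0.323 ± 0.708 (limma unadjusted p = 0.662, adjusted p = 1). Its r with the eosinophil and basophil marker score was -0.067 (rho = 0.0476, exact permutation p = 0.879 and 0.935, adjusted p = 0.986 and 1), 0.882 without mulberry replicate 4 and high-fat replicate 4, and 0.0545 with diet means removed. Of these markers 10 of 11 were measured and 9 had higher means with mulberry (score 0.246 ± 0.393 in mulberry and -0.246 ± 0.304 in high-fat arrays, SD, n = 4 each), against 6 after quantile normalization and 10 after median centring. Ccr3 had r = 0.609 with the monocyte score and -0.703 with the platelet score, given as a description with no test.

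Cxcr5, which brings B cells to the follicle through CXCL13, gave discordant probe sets. The brighter, 1386557_at, had -1.24, 0.971, 1.38 and -0.811 SD units in the mulberry arrays, against 0.861, -0.0482, -0.00492 and -1.1 in the high-fat arrays, a difference of 0.148 ± 0.721 (limma unadjusted p = 0.843, adjusted p = 1). Probe set 1369911_at of Cxcr5 had a deposited mean of 6.29, against 8.31 for the brighter. It stood at 1.29, -1.2, -0.816 and -1.31 in the mulberry arrays, against 0.965, 0.629, 0.0161 and 0.431 in the high-fat arrays. Mulberry replicates 2 to 4 were below all high-fat arrays there and replicate 1 above them, and the difference was -1.02 ± 0.605 (limma unadjusted p = 0.137, adjusted p = 1). The probe sets correlated at r = -0.358 (rho = -0.405, exact permutation p = 0.367 and 0.327, adjusted p = 0.367 and 0.327 over 4 pairs, r = 0.0511 without the 2 farthest arrays, -0.376 with diet means removed), so the name Cxcr5 covers 2 patterns.

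The brighter Cxcr5 probe set was the opposite of Ccr1 over the arrays, with r = -0.836 and rho = -0.929 (exact permutation p = 0.000843 and 0.00223, adjusted p = 0.0304 and 0.0804 over 36 pairs). It kept r = -0.808 without the 2 farthest arrays and had -0.853 with diet means removed. This pair was not recomputed after quantile normalization or median centring. The brighter probe set was low in mulberry replicate 1 and high-fat replicate 4, the arrays in which Ccr1 was high. Probe set 1369911_at was not among the 36 pairs, and stood at 1.29 and 0.431 in those arrays. For the brighter probe set, r with the B cell marker score was 0.191 (rho = 0.19, exact permutation p = 0.64 and 0.665, adjusted p = 0.986 and 0.854 over 9 pairs, 0.0359 without the 2 farthest arrays, 0.25 with diet means removed). With the monocyte score it had r = -0.85, as a description with no test, and that score was high in the arrays where Ccr1 was high. B cell markers were lower with mulberry in 9 of 9 measured of 14 (score -0.34 ± 0.67 in mulberry and 0.34 ± 0.955 in high-fat arrays, SD, n = 4 each), 7 of 9 after quantile normalization and 7 of 9 after median centring.

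Cxcr3, the receptor for the interferon-induced chemokines CXCL9 and CXCL10 on effector T and NK cells, had 0.145, -1.19, -0.693 and 0.826 SD units in the mulberry arrays. Its high-fat arrays had -1.31, 1.09, 1.22 and -0.0813, so these held both ends of the range. The difference was -0.457 ± 0.702 (limma unadjusted p = 0.536, adjusted p = 1). It was -1.06 without high-fat replicate 1 and -0.137 without high-fat replicate 3. With the NK cell marker score r was -0.0185 (rho = 0, exact permutation p = 0.972 and 1, adjusted p = 0.986 and 1), 0.643 without high-fat replicates 1 and 4, -0.17 with diet means removed and -0.827 after quantile normalization. The quantile normalized Cxcr3 difference was 0.707, the value that a single array apart from tied ones gives, so the r of -0.827 could rest on that array. NK markers were lower with mulberry in 10 of 11 measured of 13, with scores from -0.571 to -0.115 in the mulberry arrays and from -0.413 to 1.83 in the high-fat arrays, and 8 of 11 were lower after median centring. T cell markers, 13 measured of 15, were lower in 7 and higher in 6, with no settled direction. After quantile normalization 0 were lower, 6 higher and 7 at 0, after median centring 0 were lower, and 10 were lower when the hybridization controls entered the fit (median -0.731).

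**Figure D4:**
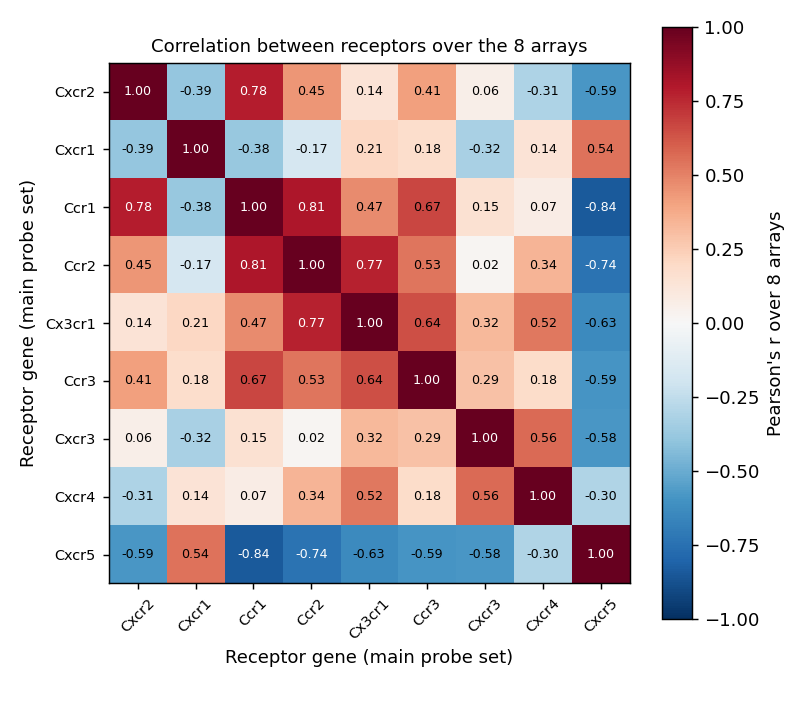
Pearson's r over the 8 arrays between the brightest probe sets of the 9 receptors, with blue below 0 and red above 0. Ccr1 and Ccr2 share r = 0.81, and Cxcr5 is negative with 7 of the other 8 receptors, lowest with Ccr1 at -0.836.

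The nearest patterns among 20826 probe sets that name 1 gene were listed for each receptor, as a description over 8 arrays. They were Prb3 (r = 0.985) and Slc22a13 (0.959) for Cxcr4, Tpd52 (0.968) and Ufsp2 (0.964) for Cxcr2, and Gap43 (0.971) and Jam2 (0.965) for Cxcr1. For Cxcr3 they were Bud31 (0.943) and Mbnl3 (0.942), and for Cxcr5 Krt23 (0.981) and Vps53 (0.957). For Ccr1 they were Rab27a (0.985) and Arrdc3 (0.978), for Ccr2 Slc31a1 (0.985) and Tfec (0.982), for Ccr3 Reep5 (0.959) and Mbip (0.954), and for Cx3cr1 Bri3bp (0.98) and Rbpms (0.953). Between 0 (Cxcr3) and 12 (Ccr2) probe sets of other genes exceeded r = 0.95.

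The other genes of the chemokine system gave no call by the adjusted limma test. Of the 31 measured ligand genes among 32, 12 had lower and 19 higher means with mulberry (median difference 0.223), and 1 (3.23%, against 4.36% of all tested probe sets) had an unadjusted p under 0.05. This was Ccl28, a mucosal chemokine (1.38 ± 0.495, limma unadjusted p = 0.0279, adjusted p = 1). Next by p were Ccl24, an eotaxin that binds CCR3 (-1.19 ± 0.573), Cxcl6 (-1.10 ± 0.599) and Cxcl2 (1.09 ± 0.607), both ligands of CXCR2. After median centring Ccl24 and Cxcl6 turned to 1.08 and 1.03. Of 8 further chemokine receptors 3 were measured, Ccr6 at -0.72 ± 0.672, Ccr10 at -0.646 ± 0.681 and Ccr4 at 0.375 ± 0.907, and Ccr6 and Ccr10 turned to 1.03 and 1.07 after median centring. Among the 6 atypical and chemokine-like receptors, which mostly take up chemokines without signalling through G proteins, 3 were lower and 3 higher, led by Ackr4 (1.02 ± 0.614), Ccrl2 (-0.787 ± 0.651), Ackr1 (-0.782 ± 0.652) and Cmklr1 (-0.896 ± 0.939). Ccrl2 turned to 1.08 after quantile normalization and Cmklr1 to 1.16 after median centring.

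Downstream, 27 of 32 genes for receptor signalling and desensitization were measured, 19 with lower and 8 with higher means (median -0.474), and 0 had an unadjusted p under 0.05, against 4.36% of all. After quantile normalization 10 were lower, 9 higher and 8 at 0, and after median centring 5 were lower. First by p were the actin regulator Coro1a (-1.002 ± 0.606), Cd74, a receptor of the cytokine MIF (-0.972 ± 0.613), the GTPase Rac2 (-0.934 ± 0.622) and Elmo1, a partner of DOCK proteins (-0.902 ± 0.66). Cd74 turned to 0.707 after quantile normalization and Elmo1 to 1.13 after median centring. The 0.707 of Cd74 is the value that a single array apart from tied ones gives. Of 17 leukocyte adhesion and exit genes 14 were measured, 10 with lower and 4 with higher means (median -0.378). After quantile normalization 3 were lower, 4 higher and 7 at 0, and the direction turned to 4 lower and 10 higher after median centring and to 5 lower and 9 higher with the hybridization controls. These were led by the integrin Itgal (1.17 ± 0.579), the activation marker Cd69, which retains lymphocytes by binding S1PR1 (-1.11 ± 0.577), Klf2 (-0.729 ± 0.661) and Icam2 (-0.683 ± 0.668). Cd69 and Icam2 turned to 0.707, the same single-array value, after quantile normalization, and Klf2 to 0.31 after median centring.

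The genes of smallest p in the marker lists were Fcer2 (-1.03 ± 0.599) and Fcmr (-0.981 ± 0.611) for B cells, and Klrc1 (-1.21 ± 0.551) and Klrk1 (-0.987 ± 0.61) for NK cells. For T cells they were Cd3g (-1.40 ± 0.481) and Cd4 (-1.17 ± 0.581), for monocytes Ms4a7 (1.20 ± 0.585) and Cd68 (-0.791 ± 0.65), and for neutrophils Padi4 (1.07 ± 0.599) and S100a8 (0.688 ± 0.668). For eosinophils and basophils they were Hdc (0.976 ± 0.612) and Siglec5 (0.947 ± 0.619), for platelets Alox12 (1.27 ± 0.528) and Itga2b (1.24 ± 0.538), and for red cells Hemgn (-1.32 ± 0.51) and Ahsp (-1.09 ± 0.584). None passed the adjusted limma test. Quantile normalization turned Cd4 to 0.437, Ms4a7 to -0.707 and S100a8 to -0.633, and median centring turned Cd3g to 0.949, Cd4 to 0.967 and Klrc1 to 0.749. The -0.707 of Ms4a7 is the value that a single array apart from tied ones gives. With the hybridization controls Ahsp turned to 0.0412. Platelet markers had higher means in 9 of 9 measured of 12, with 4 higher after quantile normalization, and erythroid markers lower means in 8 of 9 measured of 12, with 5 lower after quantile normalization. The part of these cells in the receptor values was not tested beyond the monocyte and B cell scores as covariates, with which the Cxcr4 difference was -1.48 and -1.81.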

How the data were processed

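Total RNA of whole blood was isolated with TRIzol LS and an RNeasy column, and 200 ng were labelled with the GeneChip IVT Express kit, per the labels' protocols. The deposited values were read as log2 probe set summaries. How they were summarised and normalized by the authors, and any scan date or batch, is not stated in the labels. Arrays carry no counts, so their number (8) limits the precision. Of 31099 probe sets, 57 controls were left out.

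Genes were named from the platform annotation, with symbols updated by gene number through RefSeq (GRCr8), where 20758 of the 20826 probe sets with 1 gene matched. Those with several genes (436) or none (9780) stayed unnamed. Where a gene had several probe sets, the one with the highest mean stood for it (14217 genes).

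Diets were compared by the lmFit and eBayes steps of limma (3.58.1, R 4.3.3), two-sided and with diet alone in the model, and p-values were Benjamini-Hochberg adjusted over 31042 probe sets, with a threshold of 0.05. Other steps used Python 3.11.15 and numpy 2.4.6. In simulated data on 31042 probe sets this fit called 28% of probe sets moved by 4 within-group SDs and 90% at 8. An array's score for a list is the average of its genes in SD units. Correlations over arrays used two-sided exact permutation over all pairings. All members, every probe set of theirs, the 2 most alike genes for each, 4 genes of smallest p in each pathway list and 2 in each marker list were named. The members and lists were chosen with earlier results of these data known. Same-numbered arrays of the diets had deviations correlated at -0.0462, -0.0505, 0.246 and 0.163. Arrays of different numbers ranged from -0.199 to 0.147, so whether the numbers pair the arrays was not settled. Diet differences were recomputed after quantile normalization or median centring, without the dimmest 25%, with a replicate block, other variance models or array weights. They were also recomputed with control probe sets as covariates and with each array left out. The receptor and marker correlations were recomputed after both scalings, with each array left out and with the common shift of each array removed. Correlations among receptors and among probe sets of 1 gene, the nearest patterns and the untested r with other marker scores used the deposited values only. The polyA controls and the monocyte and B cell scores as covariates, and the correlations among receptors and among probe sets of 1 gene, were added after the data were seen.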

Additional observations from a re-analysis of the deposited data

Results flagged for a closer look

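Of 58 groups of 4 arrays checked, 4 held an array whose gap to the next, divided by the group's range, was above Dixon's critical value at the 95% level, and about 1 in 20 such groups is flagged by chance. In the high-fat diet, Ccr1 in replicate 4 stood at 1.06 SD units, against -0.521 to -0.471 in the other high-fat arrays (gap 0.968 of the range). In the same array the monocyte marker score was 1.48, against -0.47 to -0.256 (0.89 of the range). The neutrophil marker score of high-fat replicate 2 was -1.51, against 0.0962 to 0.364 (0.857 of the range). The score of the atypical and chemokine-like receptors in high-fat replicate 1 was 0.777, against -0.255 to -0.164 (0.912 of the range).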

How the results depend on the processing

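No member passed the adjusted limma test under any alternative, and the count of probe sets called over the whole table stayed at 0 except after quantile normalization (12, none of them a receptor). Quantile normalization left 2 of the 9 receptors with lower means and a median difference of 0.28. It tied all arrays for the other Cxcr4 probe sets. It turned Cxcr4 probe set 1370097_a_at to 0.791, Cxcr3 to 0.707 and Ccr3 to 1.30, and the correlations of Cxcr2 with neutrophil markers to -0.339, of Ccr3 with eosinophil and basophil markers to 0.662 and of Cx3cr1 with monocyte markers to -0.819. The 0.707 of Cxcr3 is the value that a single array apart from tied ones gives. Ties on only some of the arrays were not counted, also for Cx3cr1. Median centring left 0 receptors lower and a median difference of 0.992. It turned Cxcr4 to 0.644 and, in probe set 1373661_a_at, 0.678, Cxcr1 to 0.701, Cxcr3 to 1.16, Cxcr5 probe set 1369911_at to 0.968, Ccr2 to 0.136, Ccr3 to 1.01 and Cx3cr1 to 1.17, and the correlations of Ccr3 to 0.672 and of Cx3cr1 to -0.651. It moves all probe sets by construction. For the other turns the cause was not tested. With the polyA controls in the model Cxcr1 was 0.222 and Ccr1 -0.098, with the hybridization controls Ccr1 was -0.00769, with the B cell score Ccr1 was -0.079, and with the monocyte score Cxcr5 was -0.0667. The mean of both Cxcr5 probe sets gave -0.769. Removing the common shift of each array turned the correlation of Cxcr3 with NK markers to 0.0319. No receptor was lost to the filter on dim probe sets. The replicate block, for which pairing by number was not settled, cannot move a difference in this balanced design. It changed the errors (Cxcr4 -1.49 ± 0.542, limma unadjusted p = 0.0547, adjusted p = 0.896, and 0.116 and 0.924 for probe set 1373661_a_at), so that 0 of 12 receptor probe sets had an unadjusted p under 0.05, against 2 without it, and the count of calls stayed at 0.

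Leaving out each array in turn, 6 to 7 receptors had lower means, the median difference ranged from -0.64 to -0.152 and 0 probe sets were called. Cxcr1 ranged from -1.38 to -0.178, Cxcr3 from -1.06 to -0.137, Ccr2 from -1.05 to -0.179, Cxcr2 from 0.615 to 1.31 and Cx3cr1 from -1.27 to -0.785. Cxcr5 ranged from -0.319 to 0.628, Ccr1 from -0.64 to 0.617 and Ccr3 from -0.723 to 0.224, each turning sign, and between 0 and 1 of the 9 marker correlations passed. Correlations ranged from -0.233 to 0.559 for Cxcr4 with B cell markers, -0.659 to 0.208 for Cxcr1 with neutrophil markers, -0.156 to 0.233 for Cxcr3 with NK markers, -0.0344 to 0.566 for Cxcr5 with B cell markers and -0.312 to 0.463 for Ccr3 with eosinophil and basophil markers. Detection calls and signal over background were not used here.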
